A study of Mus musculus with 29 samples.

Results

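Transcripts in which C57BL6/J retinas stood apart from the retinas of all 3 other mouse strains were taken from an RMA expression table of 25444 Affymetrix probe sets. RMA is a background-corrected, quantile-normalised and log2-scaled summary of the probes of a probe set, and a probe set is a group of short oligonucleotides matched to 1 transcript. A probe set was kept where the C57BL6/J mean differed from the means of NOD.NON-H2-nb1, AKR/J and CAST/EiJ in the same direction by at least 1 log2 unit each, that is 2-fold, at both ages. This left 97 of 25444 probe sets, of which 78 were higher (0.307% of all) and 19 lower (0.0747%) in C57BL6/J than in the other strains. They were paired with 60 genes, 47 higher and 13 lower in C57BL6/J, while 3 probe sets were paired with several genes and 31 with none in the platform annotation.

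Total RNA of whole retina was measured in rd7, NOD.NON-H2-nb1, AKR/J, CAST/EiJ and C57BL6/J mice at P30.5, a postnatal age, and E18.5, an embryonic one, in days, on 29 arrays in 10 groups. Each array held a pool of RNA from 10 retinas, so an array averages over several animals of 1 strain, and there were 3 arrays in a group, or 2 for AKR/J embryos. Whether the pools of a group shared animals is not given in the sources used here, so p-values measure only the spread between arrays. NOD.NON-H2-nb1, AKR/J and CAST/EiJ are inbred strains of separate origin, CAST/EiJ being derived from wild mice, and were studied as carriers of alleles that suppress the rd7 phenotype. NOD.NON-H2-nb1, written here as the labels spell it, carries another histocompatibility region than its NOD parent. The animals labelled RD7, called rd7 here, are a retinal degeneration line with a mutation of Nr2e3, a nuclear receptor of photoreceptors, and their strain background is not given in the sources used here. C57BL6/J is the strain to which the other 4 were compared.

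An inbred strain is homozygous for nearly all of its genome, so that any 2 strains differ by a fixed set of alleles. C57BL/6J is also the strain from which the mouse reference genome was made. The value of a probe set depends both on the amount of a transcript and on how well the transcript of a strain matches the probes, and in these data the 2 cannot be told apart. The question put to each transcript was whether rd7 retinas resembled C57BL6/J or the other strains.

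The transcripts were chosen by the 6 differences of NOD.NON-H2-nb1, AKR/J and CAST/EiJ from C57BL6/J, which are given as a description without a test. The rd7 arrays were not used by the rule, but every comparison of rd7 shares arrays with it, either those of C57BL6/J or those of the other strains. Tests are from limma over all 25444 probe sets, with Benjamini-Hochberg adjustment, and a call needed a 2-fold change or more and an adjusted p-value under 0.001.

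Array medians lay between 6.74 and 6.95 and replicate arrays of a group correlated with r between 0.931 and 0.991 over 28 pairs. Rod photoreceptor genes, 6 measured, averaged 14.12 to 14.90 on the log2 MAS5 scale over the P30.5 arrays. At E18.5 these rod genes averaged 6.89 to 7.27 in rd7, 7.02 to 7.63 in NOD.NON-H2-nb1, 6.16 to 6.63 in CAST/EiJ, 5.84 to 7.30 in AKR/J, against 8.05 to 8.67 in C57BL6/J, so that every C57BL6/J array was above every other array of that age. Genes of tissues around the retina also differed in level between E18.5 pools. The mean of 9 skeletal muscle genes was 7.03 to 11.46 in rd7, 5.68 to 10.82 in NOD.NON-H2-nb1, 7.49 to 10.78 in CAST/EiJ, 11.60 to 11.69 in AKR/J, against 5.59 to 5.85 in C57BL6/J. The mean of 8 genes of mesenchyme around the eye was 8.03 to 12.37 in rd7, 6.35 to 10.12 in NOD.NON-H2-nb1, 8.14 to 12.12 in CAST/EiJ, 12.29 to 12.43 in AKR/J, against 5.63 to 8.42 in C57BL6/J. The mean of 9 pigment epithelium genes was 9.98 to 10.72 in rd7, 8.15 to 10.22 in NOD.NON-H2-nb1, 9.96 to 10.48 in CAST/EiJ, 10.21 to 10.62 in AKR/J, against 7.27 to 8.02 in C57BL6/J, with no overlap between C57BL6/J and any other strain. The mean of 5 lens genes was 8.55 to 12.88 in rd7, 3.53 to 9.13 in NOD.NON-H2-nb1, 7.34 to 13.13 in CAST/EiJ, 8.52 to 11.77 in AKR/J, against 3.14 to 7.94 in C57BL6/J at E18.5, and it also varied at P30.5, over 10.72 to 14.75 in rd7, 3.08 to 11.62 in the other strains and 10.46 to 13.00 in C57BL6/J. Rod and pigment epithelium genes thus set C57BL6/J apart at E18.5 from rd7 and from the 3 strains whose differences chose the transcripts. The part of these cells in the values below was not tested, and in such bulk RNA fewer cells of a type and less RNA per cell cannot be told apart. No probe set was paired with Nr2e3 itself in the annotation used, so the label was checked on Opn1sw, the short-wavelength cone opsin known to be raised when Nr2e3 is lost. Opn1sw (1418552_at) had 9.28, 8.69 and 9.23 in rd7 and 7.44, 7.79 and 7.82 in C57BL6/J at P30.5, a difference of 1.38 that did not pass the call (limma adjusted p = 0.00151), with every rd7 array above every C57BL6/J array. On log2 MAS5 signals a second probe set, 1449132_at, averaged 13.58 in rd7 and 12.43 in C57BL6/J at P30.5. At E18.5 the difference of 1418552_at was -0.23 (limma adjusted p = 0.656), and 1449132_at averaged 9.64 in rd7 and 10.73 in C57BL6/J. This gene thus did not bear out the rd7 label at E18.5, and whether it can mark the label at that age was not tested.

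**Figure D1:**
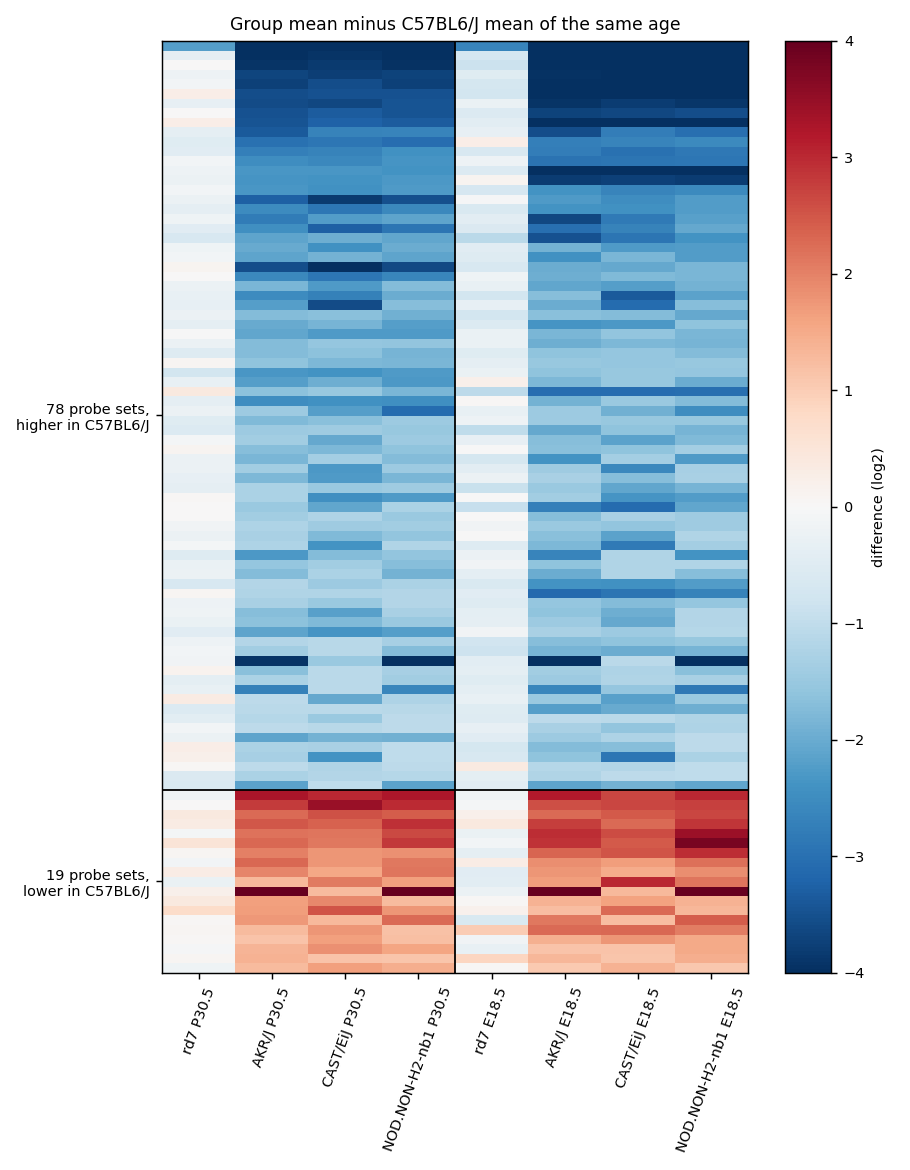
Mean of each group minus the C57BL6/J mean of the same age (log2, colours end at 4 in either direction) for the 97 probe sets, the 78 higher in C57BL6/J above and the 19 lower below, each ordered by the smallest of the 6 strain differences. The 6 columns of NOD.NON-H2-nb1, AKR/J and CAST/EiJ are coloured by the rule, whereas the rd7 columns are close to 0 for nearly all probe sets.

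Among the 78 probe sets higher in C57BL6/J, the median level at P30.5 was 7.18 in rd7, 4.89 in NOD.NON-H2-nb1, 4.72 in CAST/EiJ, 4.92 in AKR/J, against 7.29 in C57BL6/J. At E18.5 these medians were 7.01 in rd7, 4.97, 4.89 and 4.85 in the other strains in that order, and 7.51 in C57BL6/J. In 32 of the 78 the means of all 3 other strains were under 5 at both ages, a low level on this scale. Among the 19 probe sets lower in C57BL6/J, the medians at P30.5 were 6.48 in rd7, 8.58 in NOD.NON-H2-nb1, 8.31 in CAST/EiJ, 8.36 in AKR/J, against 6.47 in C57BL6/J, and 4 of the 19 were under 5 in C57BL6/J at both ages. The smallest of the 6 strain differences reached 2 log2 units in 20 of the 78 and in 6 of the 19 probe sets, and 3 log2 units in 9 and 0. The same rule applied to each other strain found 47 probe sets for NOD.NON-H2-nb1, 67 for AKR/J and 632 for CAST/EiJ, of which 36.2%, 41.8% and 23.7% were higher in that strain, against 80.4% of the 97 for C57BL6/J.

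Several of the genes with the largest differences among those higher in C57BL6/J lay near the low end of the scale in the other 3 strains. Trp53bp1 encodes a factor recruited to DNA double-strand breaks. Its probe set 1457812_at had 7.11, 7.16 and 8.10 in rd7 at P30.5, 3.38 to 3.88 over the 9 arrays of the other strains, and 6.97, 7.73 and 7.62 in C57BL6/J. At E18.5 it had 6.76, 7.91 and 7.44 in rd7, 3.31 to 3.89 in the other strains, and 8.17, 8.22 and 8.31 in C57BL6/J. The rd7 arrays thus overlapped with those of C57BL6/J at P30.5, lay just under them at E18.5, and were far from the other strains at both ages. The rd7 minus C57BL6/J difference was 0.01 ± 0.25 (SE, limma adjusted p = 0.999) at P30.5 and -0.86 ± 0.25 (adjusted p = 0.0355) at E18.5, neither of which passed the call. A second Trp53bp1 probe set, 1442316_x_at, was also among the 97, with means of 7.54 in rd7 and 7.64 in C57BL6/J at P30.5. The gene's other RMA probe sets did not share the strain difference. On 1426957_at, 1435609_at and 1446100_at the other strains differed from C57BL6/J by -0.29 to 0.33. For Trp53bp1 in CAST/EiJ at E18.5, the study's qRT-PCR had the direction of its array value but a much smaller fold change.

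Vcp, an ATPase that extracts ubiquitinated proteins from membranes and complexes, had 6.79, 7.10 and 7.87 in rd7 at P30.5, 3.58 to 4.02 in the other strains, and 6.43, 7.86 and 8.03 in C57BL6/J (1457588_at). Another Vcp probe set with MAS5 signals only, 1423030_at, did not share this. It averaged 12.68 on the log2 MAS5 scale, and the other strains differed from C57BL6/J by -0.27 to 0.31. The 2 zinc finger genes Zfp871 and Zfp874a, of a family with many close copies, were also among those with the largest differences. Zfp871 (1435163_at) had 8.11, 8.33 and 9.29 in rd7, 5.04 to 6.55 in the other strains, and 7.99, 9.48 and 9.32 in C57BL6/J. On log2 MAS5 signals, other Zfp871 probe sets differed less from C57BL6/J, by -0.46 to -0.07 for 1433784_at and by -1.18 to 0.53 for 1453140_at. Zfp874a (1434171_at) had 7.39, 7.49 and 7.21 in rd7, 4.71 to 5.13 in the other strains, and 7.70, 7.97 and 7.89 in C57BL6/J. For Zfp874a rd7 was slightly under C57BL6/J at P30.5 (-0.49 ± 0.14, adjusted p = 0.137) and slightly above it at E18.5 (0.27 ± 0.14, adjusted p = 0.301). For the chosen probe set of each of the 3 genes, the rd7 arrays were more than 1 log2 unit above the highest array of the other strains at P30.5.

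**Figure D2:**
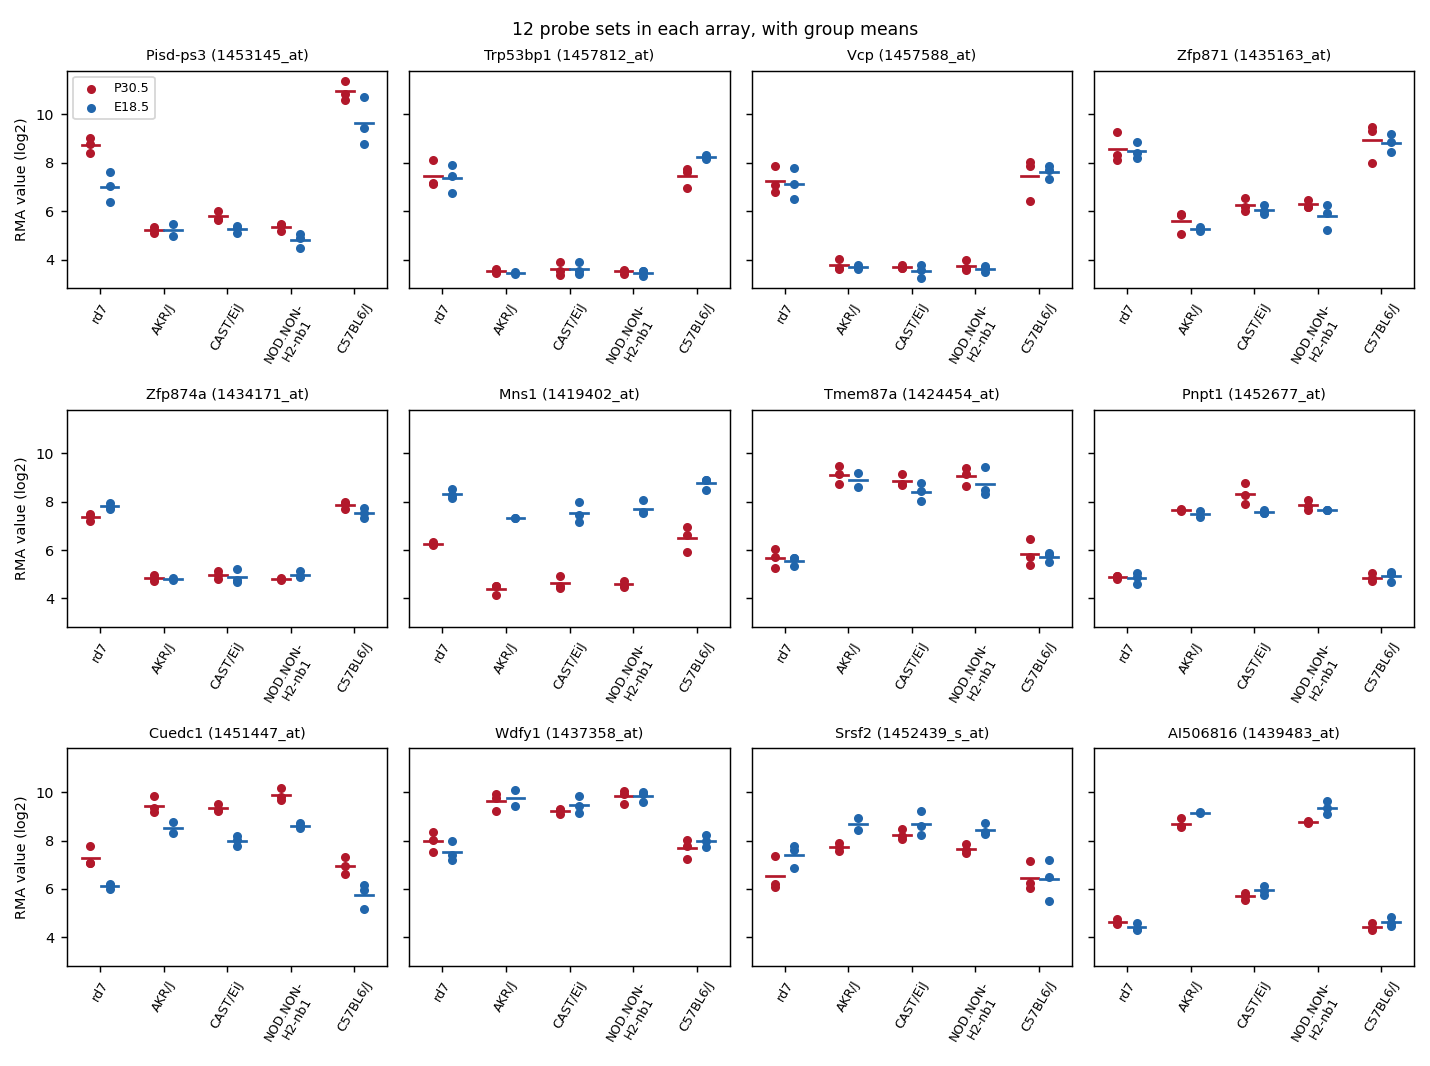
RMA value (log2) of 12 probe sets in each of the 29 arrays, by strain, at P30.5 (red) and E18.5 (blue). Points are arrays and bars are group means. The rd7 points sit with those of C57BL6/J in most panels, lie between C57BL6/J and the other strains for Pisd-ps3 at both ages, and lie above C57BL6/J on average for Srsf2 at E18.5.

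Rmst, a long noncoding RNA of the developing nervous system, had 7.05, 7.38 and 7.17 in rd7, 4.78 to 5.22 in the other strains, and 7.41, 7.31 and 7.45 in C57BL6/J at P30.5. Snx6, a sorting nexin of the retromer pathway, had 5.95, 6.10 and 5.84 in rd7, 3.67 to 4.04 in the other strains, and 5.96, 6.53 and 6.09 in C57BL6/J. In both genes rd7 and C57BL6/J arrays were 1 log2 unit or more from every array of the other strains. Of the other genes with the largest differences, Arhgap26 encodes a GTPase-activating protein and Cep44 a centrosome protein. Pdk1 encodes a kinase that inhibits pyruvate dehydrogenase in mitochondria, and Ttc3 a ubiquitin ligase. The rd7 minus C57BL6/J differences at P30.5 were -0.22 for Arhgap26, -0.18 for Cep44, -0.64 for Pdk1 and -0.18 for Ttc3. Pdk1 had 5.57, 5.31 and 6.07 in rd7, 3.98 to 4.51 in the other strains, and 5.96, 6.54 and 6.39 in C57BL6/J, and at this age rd7 was called against none of the other strains.

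A pair of further genes had 2 probe sets each among the 97. B3galt6, a galactosyltransferase that builds the linker between proteoglycan cores and their sugar chains, had 5.04, 5.90 and 5.84 in rd7, 3.07 to 3.55 in the other strains, and 5.40, 5.69 and 5.98 in C57BL6/J at P30.5 (1435252_at). Its other probe set, 1440340_at, had a mean of 6.42 in rd7 and 6.55 in C57BL6/J, with means of 5.14 to 5.32 in the other strains. Zc2hc1a (1428417_at) had 7.48, 7.79 and 8.64 in rd7, 5.84 to 6.73 in the other strains, and 7.63, 8.27 and 8.71 in C57BL6/J. On the chosen probe sets of both genes rd7 arrays again overlapped with C57BL6/J and not with the other strains. Each gene also had a brighter RMA probe set that did not share the strain difference. For B3galt6 the other strains were higher than C57BL6/J on 1421155_at, by 0.19 to 0.82. For Zc2hc1a they differed from C57BL6/J by -0.39 to 0.24 on 1428416_at.

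The genes lower in C57BL6/J formed a smaller group. Tmem87a, a membrane protein of the Golgi apparatus, had 5.71, 5.25 and 6.05 in rd7, 8.65 to 9.46 in the other strains, and 5.36, 6.46 and 5.72 in C57BL6/J at P30.5 (1424454_at). Pnpt1, the polynucleotide phosphorylase of mitochondria, had 4.82, 4.92 and 4.92 in rd7, 7.61 to 8.75 in the other strains, and 4.72, 4.83 and 5.04 in C57BL6/J (1452677_at). Both probe sets were low in rd7 and C57BL6/J alike, with gaps of more than 2 log2 units to the nearest array of another strain. For Pnpt1 this did not extend to its other probe sets in the RMA table. The other strains were lower than C57BL6/J on 1452676_a_at, by -0.97 to -0.19, and differed by -0.37 to 0.14 on 1444288_at. The rd7 minus C57BL6/J differences were -0.17 (95% confidence interval -0.79 to 0.44) for Tmem87a and 0.02 (-0.33 to 0.37) for Pnpt1 at P30.5, so that a 2-fold difference lay outside both intervals.

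Cuedc1, a protein with a ubiquitin-binding CUE domain, had 7.05, 7.06 and 7.76 in rd7, 9.16 to 10.18 in the other strains, and 6.61, 6.95 and 7.32 in C57BL6/J at P30.5. Wdfy1, a protein of early endosomes, had 7.53, 8.04 and 8.36 in rd7, 9.10 to 10.03 in the other strains, and 7.24, 8.01 and 7.77 in C57BL6/J. Cfap54, needed for motile cilia, had 6.32, 6.46 and 6.68 in rd7, 8.12 to 9.01 in the other strains, and 6.68, 6.33 and 6.74 in C57BL6/J. The rd7 arrays overlapped with those of C57BL6/J in all 3 genes. Ntrk3, the receptor of neurotrophin 3, had 4.98, 4.68 and 5.16 in rd7, 5.64 to 7.26 in the other strains, and 3.67, 4.38 and 4.58 in C57BL6/J. The noncoding 1500011B03Rik had 7.01, 7.33 and 6.97 in rd7, 7.75 to 8.88 in the other strains, and 6.78, 6.69 and 6.66 in C57BL6/J. In both, the rd7 arrays lay between those of C57BL6/J and of the other strains at P30.5, with rd7 minus C57BL6/J differences of 0.73 (adjusted p = 0.494) and 0.40 (adjusted p = 0.514) that did not pass the call. Further genes lower in C57BL6/J were Srsf2 (a splicing factor), Hddc3 (a hydrolase), Slc25a12 (the aspartate and glutamate carrier of mitochondria), Card10 (a scaffold of NF-kappa-B signalling) and Slc25a29 (a mitochondrial carrier of basic amino acids).

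The other 3 strains did not always share a level. The range between their means had a median of 0.33 at P30.5 and 0.38 at E18.5, and was under 0.5 in 59 and 62 of the 97 probe sets. It exceeded 2 log2 units in the same probe sets at both ages, AI506816 and the unnamed 1444198_at. AI506816, a noncoding transcript (1439483_at), averaged 4.62 in rd7, 8.76 in NOD.NON-H2-nb1, 5.69 in CAST/EiJ, 8.69 in AKR/J, against 4.42 in C57BL6/J at P30.5. CAST/EiJ thus lay between rd7 and C57BL6/J on one side and AKR/J and NOD.NON-H2-nb1 on the other. For 1444198_at, which is higher in C57BL6/J, the means at E18.5 were 9.17 in rd7, 3.97 in NOD.NON-H2-nb1, 8.49 in CAST/EiJ, 4.13 in AKR/J, against 9.58 in C57BL6/J. CAST/EiJ was the strain nearest to C57BL6/J in 40 of 97 probe sets at P30.5 and NOD.NON-H2-nb1 in 39 of 97 at E18.5.

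The threshold cut through a continuous range. The 3 probe sets just inside it were those of Irak1bp1, Hdgfl3 and 2610507I01Rik, all higher in C57BL6/J, with smallest differences of 1.013, 1.018 and 1.022. The 3 just outside were those of Ints10, lower in C57BL6/J, and of Slc25a47 and Tmtc3, higher in C57BL6/J, with 0.995, 0.976 and 0.972.

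rd7 retinas were much closer to C57BL6/J than to the other strains in these transcripts. The median absolute difference between rd7 and C57BL6/J was 0.23 over the 97 probe sets at P30.5 and 0.40 at E18.5, beside 0.14 and 0.19 over all probe sets. Between rd7 and NOD.NON-H2-nb1, AKR/J and CAST/EiJ it was 1.69, 1.66 and 1.87 at P30.5, beside 0.21, 0.18 and 0.29 over all probe sets, and 1.57, 1.69 and 1.75 at E18.5, beside 0.21, 0.17 and 0.25. When the mean of the 3 other strains was set at 0% and the C57BL6/J mean at 100%, rd7 lay at a median of 90.5% at P30.5, with a range of 48.4% to 123.9%, and at 84.0% at E18.5, with a range of 34.4% to 131.8%. rd7 was past the midpoint towards C57BL6/J in 96 of the 97 probe sets at P30.5 and in 94 at E18.5. The rd7 arrays overlapped with the C57BL6/J arrays in 89 probe sets at P30.5 and 75 at E18.5, and with the arrays of the other strains in 6 and 13. Such overlaps were not counted over all probe sets. The rule, which used the arrays of C57BL6/J and of the other strains, had already set those apart.

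**Figure D3:**
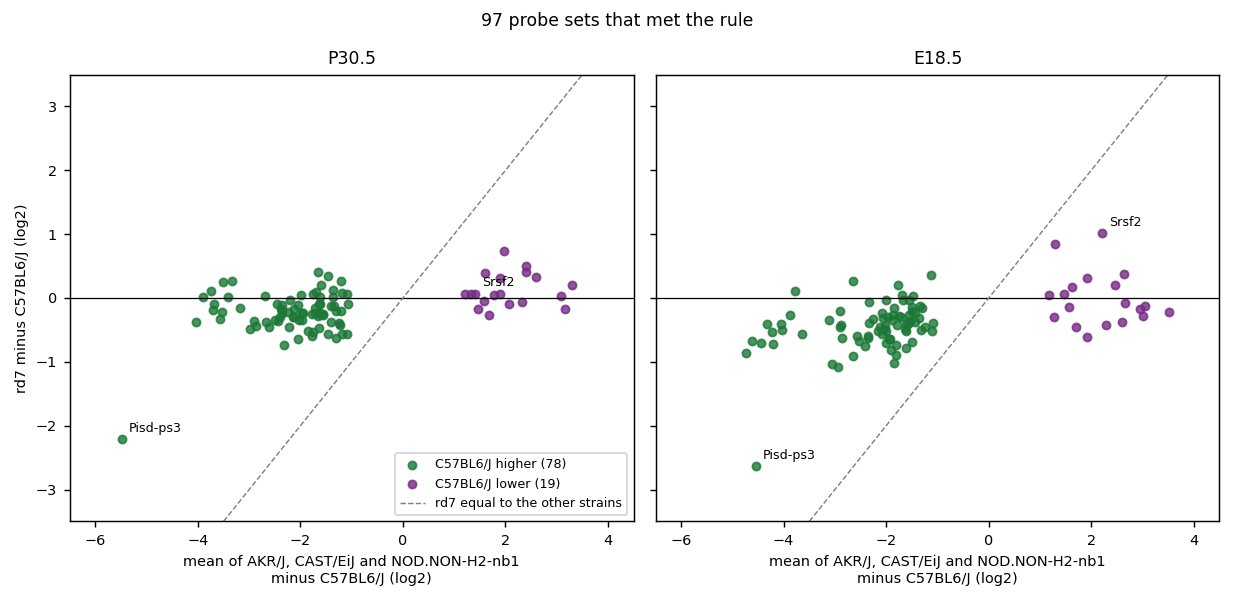
rd7 minus C57BL6/J (log2) against the mean of NOD.NON-H2-nb1, AKR/J and CAST/EiJ minus C57BL6/J (log2) for the 97 probe sets at P30.5 (left) and E18.5 (right), green where C57BL6/J is higher and purple where it is lower. Points near the horizontal line have the C57BL6/J level in rd7, and points near the dashed line would have the level of the other strains. Pisd-ps3 lies lowest, at -2.21 and -2.63.

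The test of rd7 against C57BL6/J called 1 of the 97 probe sets at each age, when 0.330% of all probe sets were called at P30.5 and 0.295% at E18.5. At an adjusted p-value under 0.05 without a fold limit, the counts were 1 at P30.5 (0.998% of all) and 7 at E18.5 (7.15%). The 95% confidence interval of rd7 minus C57BL6/J lay wholly within 1 log2 unit of 0 in 81 of 97 at P30.5, when 91.0% of all probe sets did, and in 53 at E18.5, when 82.4% did. For the remaining probe sets a 2-fold difference between rd7 and C57BL6/J was not excluded at this number of arrays. The direction was not even. Of the 78 probe sets higher in C57BL6/J, 60 were lower in rd7 than in C57BL6/J at P30.5 and 72 at E18.5, with median differences of -0.23 and -0.43 beside -0.03 and -0.07 over all probe sets. Of the 19 lower in C57BL6/J, 6 were lower in rd7 at P30.5 and 11 at E18.5, with medians of 0.07 and -0.12. The C57BL6/J arrays entered the choice of these probe sets and the rd7 arrays did not.

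Against the other strains, limma called 70 of the 97 probe sets for rd7 against NOD.NON-H2-nb1 in P30.5 retina, where 2.36% of all were called, 72 for AKR/J (2.20%) and 75 for CAST/EiJ (7.24%). At E18.5 the counts were 61 (1.60%), 55 (1.09%) and 72 (5.03%) in the same order. All 3 comparisons were called in the direction of C57BL6/J in 63 probe sets at P30.5 and 48 at E18.5, against 0.692% and 0.299% of all probe sets called against all 3 in 1 direction. The arrays of the 3 strains served both the rule and these comparisons, so the counts are not independent of the choice. rd7 differed from each of the 3 strains by at least 1 log2 unit on the side of C57BL6/J in 81 probe sets at P30.5 and 74 at E18.5, where 1.10% and 0.586% of all probe sets did so, and in 7 of the 97 it did so at neither age. Named genes among these 7 were Dmtf1, Adarb2, Mff, Pex19 and Hdgfl3, all with smallest strain differences under 1.30.

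The probe set called between rd7 and C57BL6/J at both ages was that of Pisd-ps3. It is annotated as a transcribed pseudogene of the phosphatidylserine decarboxylase gene, whose enzyme makes phosphatidylethanolamine in mitochondria, and the gene table places it on no chromosome. The sequence of a pseudogene is close to that of its parent gene and of other copies, so which copy the probe set measured is uncertain. Its probe set 1453145_at had 8.76, 8.41 and 9.02 in rd7 at P30.5, 5.09 to 6.01 over the 9 arrays of the other strains, and 10.60, 11.40 and 10.84 in C57BL6/J. At E18.5 it had 6.39, 7.62 and 7.03 in rd7, 4.49 to 5.47 over 8 arrays of the other strains, and 9.45, 8.78 and 10.70 in C57BL6/J. No arrays of the 3 levels overlapped at either age, rd7 lying between the others at 59.7% and 42.1% of the way to C57BL6/J. Other Pisd-ps3 probe sets, with MAS5 signals only, were divided. The other strains were lower than C57BL6/J on 1453144_at, by -5.51 to -2.67, and on 1429452_x_at, by -4.38 to -0.06. On the brighter 1434975_x_at CAST/EiJ was higher, by 2.17 at P30.5 and 2.46 at E18.5, and on 1439069_a_at by 2.61 and 2.78. NOD.NON-H2-nb1 and AKR/J differed by -1.48 to -0.09 on these brighter probe sets.

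The difference of rd7 from C57BL6/J for Pisd-ps3 was -2.21 ± 0.33 (SE, limma adjusted p = 0.000277) at P30.5 and -2.63 ± 0.33 (adjusted p = 0.000168) at E18.5. rd7 exceeded NOD.NON-H2-nb1, AKR/J and CAST/EiJ by 3.37, 3.52 and 2.95 at P30.5 and by 2.19, 1.79 and 1.75 at E18.5. At E18.5 the difference from AKR/J (adjusted p = 0.00437) did not pass the call and those from CAST/EiJ (adjusted p = 0.000415) and NOD.NON-H2-nb1 (adjusted p = 8.75e-05) did. The call against C57BL6/J was lost without C57BL6/J P30.5 replicate 2 or 3, without rd7 P30.5 replicate 1 or 2, without C57BL6/J E18.5 replicate 3 and without rd7 E18.5 replicate 3, with adjusted p-values of 0.00109 to 0.00432 and differences of -1.99 to -2.64. It was also lost on MAS5 signals, at adjusted p = 0.0193 and 0.00338, where the differences were -2.18 and -2.49. With the date in the array labels as a replicate block the E18.5 call was lost (-2.13, adjusted p = 0.00151), and in fits of the rd7 and C57BL6/J arrays alone it was called at neither age.

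A few other transcripts had an rd7 mean well between those of C57BL6/J and the other strains at E18.5. Srsf2 (1452439_s_at) had 7.61, 7.76 and 6.88 in rd7, 8.24 to 9.24 in the other strains, and 6.51, 7.21 and 5.49 in C57BL6/J, a difference from C57BL6/J of 1.01 ± 0.37 (adjusted p = 0.0991). At P30.5 it had 6.20, 7.34 and 6.07 in rd7 and 6.25, 7.14 and 6.02 in C57BL6/J. Pdk1 had 6.54, 7.40 and 6.73 in rd7, 4.31 to 6.70 in the other strains, and 8.10, 7.66 and 8.15 in C57BL6/J at E18.5, a difference of -1.08 ± 0.35 (adjusted p = 0.0649). Card10 had 6.31, 6.64 and 7.85 in rd7, 6.65 to 8.05 in the other strains, and 6.36, 6.09 and 5.81 in C57BL6/J at E18.5, 1 rd7 array standing well above the others. None of these differences from C57BL6/J passed the call.

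At E18.5 rd7 differed from C57BL6/J by at least 1 log2 unit in the direction of the other strains in 5 of the 97 probe sets, Pisd-ps3, Pdk1, Mir1931, Srsf2 and the unnamed 1443278_at, when 4.54% of all probe sets differed by that much in either direction. At P30.5 Pisd-ps3 was the only one, beside 0.770% of all. The count at E18.5 was 13 without rd7 E18.5 replicate 2 and 2 without rd7 E18.5 replicate 1, and it was 3 without C57BL6/J E18.5 replicate 3 or rd7 E18.5 replicate 3. The 7 probe sets with an adjusted p-value under 0.05 at E18.5 were Pisd-ps3, Trp53bp1 (1457812_at), Mir1931, Dmtf1, Fmn2 and the unnamed 1443278_at and 1459202_at, all lower in rd7 than in C57BL6/J.

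The probe set 1446130_at was paired by the platform annotation with Mir1931, a microRNA gene of chromosome 10. Arrays of this kind detect polyadenylated transcripts, so its value stands for a longer transcript of the locus and not for the mature microRNA, whose sequence is shown to identify the gene (RefSeq, build GRCm38.p6, chr10:93162879-93162900, plus strand), with the seed, bases 2 to 8, in capitals.
mmu-miR-1931: aUGCAAGGgcuggugcgauggc
The probe set had 5.46, 5.79 and 6.15 in rd7, 3.55 to 4.02 in the other strains, and 6.87, 6.92 and 6.75 in C57BL6/J at E18.5, a difference of rd7 from C57BL6/J of -1.04 ± 0.30 (adjusted p = 0.0354). At P30.5 it had 5.45, 5.26 and 7.08 in rd7, 3.55 to 4.20 in the other strains, and 5.05, 5.93 and 5.61 in C57BL6/J. The 2 strains were thus apart at E18.5 and overlapped at P30.5, both above the other strains.

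Between the ages, rd7 and C57BL6/J shared the direction of every change that was called in both. limma called 19 of the 97 between P30.5 and E18.5 in rd7, when 17.0% of all probe sets were called, and 22 in C57BL6/J (18.0%). In the other strains the counts were 10 in NOD.NON-H2-nb1 (16.9%), 9 in AKR/J (16.7%) and 13 in CAST/EiJ (15.4%), at levels that the rule had set lower for most of the probe sets. In rd7, 12 were higher at P30.5 (7.62% of all) and 7 lower (9.40%), and in C57BL6/J 11 were higher (8.25%) and 11 lower (9.76%). The calls shared by rd7 and C57BL6/J numbered 15, which is 78.9% of the rd7 calls and 68.2% of the C57BL6/J calls, and 0 of them had opposite signs. Shared calls and signs were not counted over all probe sets, so this overlap is not a result particular to the 97. The difference in age change between rd7 and C57BL6/J was called in 0 of the 97 by limma, when 0.169% of all were called. The smallest adjusted p-value was 0.0603, and 11 of the 97 had an unadjusted p-value under 0.05, beside 12.8% of all probe sets. The same test on MAS5 signals also called 0.

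**Figure D4:**
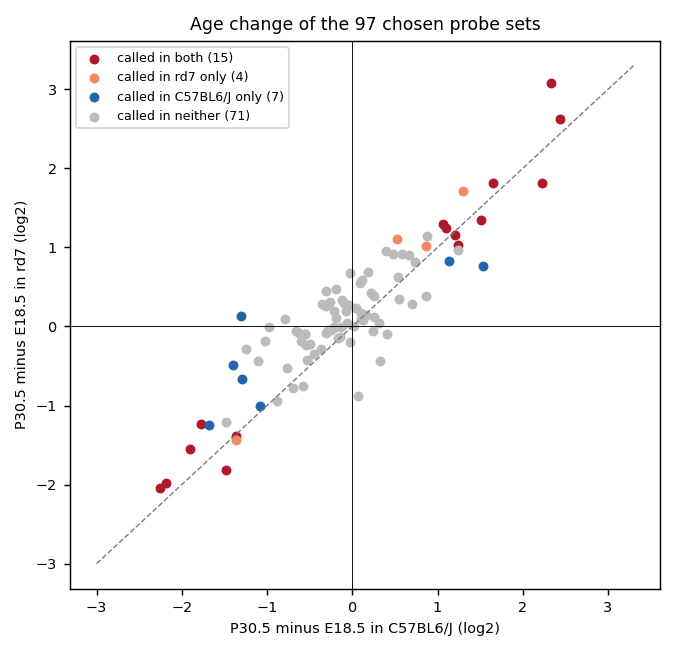
Difference between P30.5 and E18.5 (log2) in rd7 against that in C57BL6/J for the 97 probe sets, coloured by whether limma called it in both strains (15), in rd7 only (4), in C57BL6/J only (7) or in neither (71). The dashed line marks equal change. Called points of both strains lie at the upper right and lower left.

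The largest difference between the ages in rd7 was that of the unnamed 1453529_at, with 7.46, 8.14 and 8.03 at P30.5 and 4.30, 5.28 and 4.81 at E18.5 in rd7, a difference of 3.08 ± 0.20 (adjusted p = 9.52e-12), and of 2.33 ± 0.20 (adjusted p = 1.25e-09) in C57BL6/J. Ppip5k1, a kinase that makes inositol pyrophosphates, had 8.94, 8.88 and 9.60 at P30.5 and 6.25, 6.89 and 6.38 at E18.5 in rd7. Its difference was 2.63 ± 0.25 (adjusted p = 6.71e-09) in rd7 and 2.44 ± 0.25 (adjusted p = 2.09e-08) in C57BL6/J. Higher at P30.5 in both strains were also Cfap54 (1.82 in rd7 and 2.22 in C57BL6/J), Tmem243 (1.81 and 1.65), Arhgap26 (1.35 and 1.51), C920006O11Rik (1.30 and 1.06), Cuedc1 (1.16 and 1.21) and Slc25a29 (1.03 and 1.24), the rd7 value being given before that of C57BL6/J, and so was the unnamed 1440557_at (1.25 and 1.10). Cfap54 was higher at P30.5 in the other strains too, at 8.12 to 9.01 against 5.72 to 6.87 at E18.5.

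Lower at P30.5 in both strains were Mns1, Tex9, Snx6, Rmst, AA388235 and the unnamed 1453841_at. Mns1, a protein of sperm flagella and motile cilia, had 6.20, 6.34 and 6.26 at P30.5 and 8.29, 8.51 and 8.13 at E18.5 in rd7, a difference of -2.04 ± 0.22 (adjusted p = 5.11e-08), and of -2.26 ± 0.22 (adjusted p = 8.98e-09) in C57BL6/J. Tex9, named for its expression in testis, had 4.21, 4.61 and 5.55 at P30.5 and 6.88, 7.21 and 6.22 at E18.5 in rd7, a difference of -1.98 ± 0.32 (adjusted p = 1.56e-05). Both genes were thus higher in E18.5 than in P30.5 retina. The other strains shared this, with 4.16 to 4.91 at P30.5 and 7.17 to 8.05 at E18.5 for Mns1. For Tex9 they had 2.83 to 3.46 and 4.48 to 6.11. Snx6 fell by 1.82 in rd7 and by 1.48 in C57BL6/J, and Rmst fell by 1.55 and by 1.90. In the other strains Snx6 was low at both ages, at 3.67 to 4.04 and 3.60 to 4.27, and so was Rmst, at 4.78 to 5.22 and 4.73 to 5.54. Pisd-ps3 was higher at P30.5 in rd7 by 1.72 ± 0.33 (adjusted p = 0.00016), and its difference in C57BL6/J of 1.30 ± 0.33 (adjusted p = 0.00236) did not pass the call.

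Mns1 and Tex9 lie near each other on chromosome 9 in the RefSeq gene table of GRCm38.p6, and their promoters are shown with those of Tmem87a and Zfp874a, genes with no other probe set in the RMA table. Each stretch has 250 bases before and 50 after the gene's start in RefSeq, build GRCm38.p6, which is C57BL/6J sequence, and CCAAT on either strand is in capitals.
Mns1, chr9:72438279-72438578, plus strand: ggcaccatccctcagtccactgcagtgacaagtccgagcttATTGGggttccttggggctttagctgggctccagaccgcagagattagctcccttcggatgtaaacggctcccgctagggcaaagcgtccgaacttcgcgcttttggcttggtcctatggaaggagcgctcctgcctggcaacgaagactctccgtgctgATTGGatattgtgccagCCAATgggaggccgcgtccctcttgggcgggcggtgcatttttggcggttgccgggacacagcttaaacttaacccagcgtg
Tex9, chr9:72491910-72492209, minus strand: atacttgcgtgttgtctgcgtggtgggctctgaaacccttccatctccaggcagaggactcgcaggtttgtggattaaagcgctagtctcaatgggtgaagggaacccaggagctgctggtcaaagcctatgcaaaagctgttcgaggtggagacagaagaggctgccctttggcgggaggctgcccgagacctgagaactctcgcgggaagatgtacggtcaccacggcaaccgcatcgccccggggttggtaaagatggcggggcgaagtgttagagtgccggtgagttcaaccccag
Tmem87a, chr2:120404067-120404366, minus strand: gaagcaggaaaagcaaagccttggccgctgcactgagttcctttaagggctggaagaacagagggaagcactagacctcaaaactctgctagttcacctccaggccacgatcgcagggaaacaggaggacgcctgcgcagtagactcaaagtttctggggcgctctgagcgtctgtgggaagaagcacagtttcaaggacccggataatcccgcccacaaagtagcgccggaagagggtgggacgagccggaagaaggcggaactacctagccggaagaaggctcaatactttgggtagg
Zfp874a, chr13:67451575-67451874, minus strand: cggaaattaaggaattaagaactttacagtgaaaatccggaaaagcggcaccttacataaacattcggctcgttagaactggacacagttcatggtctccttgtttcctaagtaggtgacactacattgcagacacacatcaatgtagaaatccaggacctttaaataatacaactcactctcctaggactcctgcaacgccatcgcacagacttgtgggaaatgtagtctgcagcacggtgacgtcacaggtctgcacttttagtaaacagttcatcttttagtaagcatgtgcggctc
CCAAT was found 3 times in the Mns1 window and 0 times in the others, and 37.4% of 32851 RefSeq promoter windows of that length held it. The GC box GGGCGG, read on both strands, was found 2 times for Mns1, 1 time for Tmem87a and 0 times for Tex9 and Zfp874a, and 35.7% of windows held it. The TATA box TATAAA was found in none of the 4 windows and in 13.6% of all. The windows held 58.7% G or C for Mns1, 58.0% for Tex9, 56.0% for Tmem87a and 43.7% for Zfp874a, with a median of 52.7% over all windows. No sequence of the other strains was used, so these letters do not show where the strains differ.

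Most genes were represented by a single probe set among several. Of the 60 genes, 44 had another probe set in the RMA table, 78 such probe sets in all. All 6 strain differences of these others were within 0.5 log2 units of 0 in 31 and within 1 in 65 of the 78. They were past 0.5 log2 units on the side of the gene's chosen probe set in 5 of the 78. The median over the others was -0.11 in genes higher in C57BL6/J and 0.27 in genes lower in C57BL6/J. These values come from the contrasts that the rule used and are given as a description.

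The genes with a second probe set past 0.5 log2 units in all 6 differences were Nbeal1 (a BEACH domain protein), Slc25a29, Slx1b (a subunit of a structure-specific endonuclease), Usp39 (a splicing factor) and Wdfy1. For Wdfy1, 1424749_at differed by 0.66 to 1.84 from C57BL6/J, and for Slc25a29, 1438188_x_at by 0.81 to 1.34. For Nbeal1, 1442027_at differed by -2.83 to -0.89. In contrast, the 3 other RMA probe sets of Trp53bp1 had median differences of -0.10 to 0.02. The 2 other RMA probe sets of Snx6 had median differences of -0.39 and -0.23. Which part of a transcript each probe set matches was not examined.

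**Figure D5:**
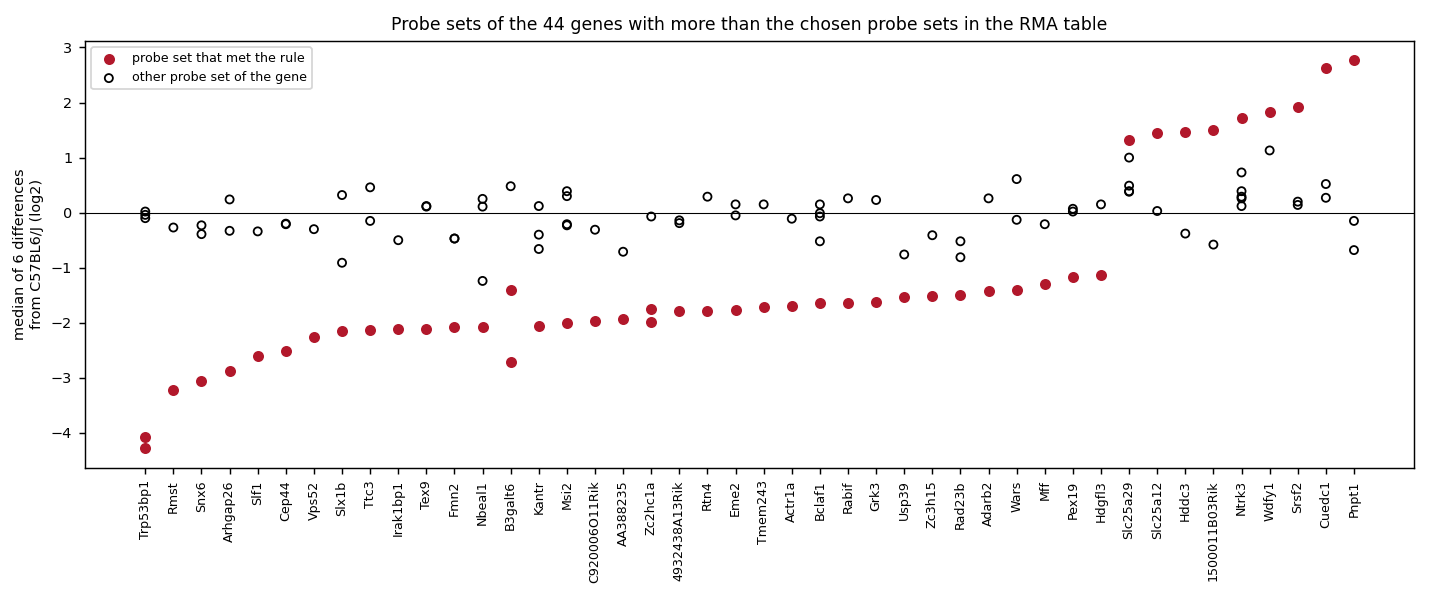
Median of the 6 differences of NOD.NON-H2-nb1, AKR/J and CAST/EiJ from C57BL6/J (log2) for each RMA probe set of the 44 genes that had a probe set beside the chosen ones. Filled red points met the rule and open points are other probe sets of the same gene, most of which lie within 1 log2 unit of 0 (65 of 78 in all 6 differences).

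The 59 genes with a chromosome lay on all 19 autosomes, with 1 gene, Kantr, a long noncoding RNA, on chromosome X. Another of the 59 was within 2 Mb of 27 of them, in 11 neighbourhoods and 20 pairs. Neighbours were not counted for the other genes of the RMA table, so these counts are no result about the 59. The pairs were divided between 10 on the same side and 10 on opposite sides of C57BL6/J. Of all 60 genes, 47 were higher and 13 lower in C57BL6/J. On chromosome 2, Trp53bp1, Ppip5k1 and Spata5l1 were higher and Tmem87a lower in C57BL6/J, and elsewhere on it Pdk1 was higher and Slc25a12 lower. On chromosome 17, Zfp871, Vps52 (a subunit of a tethering complex at the Golgi) and AA388235 were all higher. On chromosome 10, Rmst and Mir1931 were higher and Cfap54 lower. On chromosome 7, Hddc3 and Ntrk3 were lower and Hdgfl3 higher.

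Opposite sides were also found for Wars, the tryptophan-tRNA ligase, and Slc25a29 on chromosome 12, for Rtn4, known as Nogo, and Pnpt1 on chromosome 11, for Msi2, an RNA-binding protein of neural progenitors, and Cuedc1 on the same chromosome, and for Grk3, a receptor kinase, and 1500011B03Rik on chromosome 5. Wars averaged 8.49 in rd7, 7.00 in NOD.NON-H2-nb1, 7.25 in CAST/EiJ, 7.08 in AKR/J, against 8.48 in C57BL6/J at P30.5. Slc25a29 averaged 8.22 in rd7, 9.85 in NOD.NON-H2-nb1, 10.04 in CAST/EiJ, 9.65 in AKR/J, against 8.39 in C57BL6/J. Over these 8 genes the rd7 minus C57BL6/J difference ranged between -0.50 for Msi2 and 0.40 for 1500011B03Rik at P30.5. Same-sided pairs were Mns1 and Tex9, and Tmem243 and Dmtf1, a Myb-like transcription factor, on chromosome 5.

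Of a list of 57 genes of phototransduction, photoreceptor fate and bipolar cells, 21 were measured in the RMA table and 0 met the rule. The counts were also 0 of 12 measured among 35 histocompatibility or interferon-induced genes and 0 of 4 measured among 10 genes known to carry a variant allele in C57BL/6J. Over all, 0.486% of 12349 genes in the RMA table met it, so a count of 0 in lists this short is no result about them. Pde6c, a gene of the retina list that was not in the RMA table, met it on MAS5 signals. Zinc finger genes with a symbol starting with Zfp, Zkscan or Zscan gave 2 of 316 (0.633%), and pseudogenes or genes without an assigned name gave 7 of 763 (0.917%). Probe sets paired with no gene were 32.0% of the 97 and 17.8% of the RMA table. In the retina list, limma called 1 gene between rd7 and C57BL6/J at P30.5, Cngb3, a cone channel subunit, which was higher in rd7, and 0 at E18.5. The median rd7 minus C57BL6/J difference of the list was -0.18 at P30.5 and -0.16 at E18.5, beside -0.03 and -0.07 over all probe sets.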

How the data were processed

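Retinal RNA of 5 strains at 2 ages was hybridised to Affymetrix mouse arrays by the authors, who deposited log2 RMA values of 25444 probe sets and MAS5 signal intensity per array for 45101. MAS5 is named in the submitters' processing notes. The genome build of the probe sets is not given in the sources used here. A cell means model with 1 mean per strain and age was fitted with limma 3.58.1 in R 4.3.3 to the deposited RMA log2 values of all 29 arrays. P-values were adjusted by Benjamini-Hochberg within each contrast. MAS5 intensity was used as log2 of the value plus 1 as an alternative and for marker genes. The fit was tested on simulated data. The labels give a date with each array, without saying which step it dates. Arrays of 1 date deviated together (mean r 0.261 over 120 pairs, against -0.121 over 258 pairs of different dates), so this date was also fitted as a replicate block. For rd7 and C57BL6/J the same-date correlations were -0.014 to 0.534 at P30.5 and 0.013 to 0.092 at E18.5. Genes were named from the platform annotation, with chromosomes from RefSeq (GRCm38.p6). Named genes were those with the largest strain differences, with 2 chosen probe sets, with the largest rd7 or age differences, or within 2 Mb of another chosen gene. A few others, such as Fmn2, Adarb2, Mff and Pex19, were named after their values were seen. The transcripts and gene lists were chosen with earlier results of these data known.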

Additional observations from a re-analysis of the deposited data

Results flagged for a closer look

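The RMA table left out 19657 probe sets that had MAS5 signals. Of these, 68 met the same rule on log2 MAS5 values, a signal in data that the report did not use. A highest group mean of at least 7 and no overlap between C57BL6/J and the other strains were then also required, which left 17. All 17 were higher in C57BL6/J, and the side of the rest of the 68 is not given here. Prune2 (1432198_at) had a smallest strain difference of 6.64, with means at P30.5 of 12.32 in rd7, 4.66 in NOD.NON-H2-nb1, 5.14 in CAST/EiJ, 5.40 in AKR/J, against 12.34 in C57BL6/J. The unnamed 1436240_at had a smallest difference of 5.74, with 11.03 in rd7 and 11.07 in C57BL6/J. Pdk1 (1423748_at) and Rtn4 (1435284_at) met the rule here by another probe set, with smallest differences of 1.17 and 1.05. Further MAS5 probe sets of these genes were divided. For Pdk1, 1423747_a_at differed from C57BL6/J by -2.21 to -0.79 and 1435836_at by -0.65 to 0.28. For Rtn4, 1452649_at differed by -0.11 to 0.07 and 1421116_a_at by -0.07 to 0.34. Pde6c, the cone phosphodiesterase, had 14.21 in rd7 and 11.83 in C57BL6/J at P30.5 (1450830_a_at), so that rd7 was higher than C57BL6/J by 2.38. No group had 4 or more arrays, so single arrays far from their group were not looked for.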

How the results depend on the processing

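The rule found 200 probe sets in place of 97 on MAS5 signals, 45 at 1.5 log2 units, and 179 at P30.5 alone, an alternative chosen after seeing the data. On MAS5 signals 0 of the 97 were called between rd7 and C57BL6/J at P30.5, and the 1 called at E18.5 was not Pisd-ps3. On these signals rd7 was called against each of the 3 other strains in 36 at P30.5 and 26 at E18.5, differed from C57BL6/J like them in 2 at P30.5, and the age calls numbered 7 in rd7 and 5 in C57BL6/J. With the labelled date as a replicate block, 0 were called between rd7 and C57BL6/J at E18.5, and Pisd-ps3 had a difference of -2.13 (limma adjusted p = 0.00151). One C57BL6/J array at E18.5 was alone on its date, so this block removed it. At an adjusted p-value under 0.05 with no fold limit, the count was 7 for rd7 against C57BL6/J at E18.5, when 7.15% of all probe sets were called. It was 75 for rd7 against each of the other strains at E18.5, and 36 and 44 between the ages in rd7 and C57BL6/J. With the arrays of the compared groups alone, the counts were 0 at P30.5 and 0 at E18.5 for rd7 against C57BL6/J, 30 against each of the other strains at E18.5, and 5 between the ages in rd7, with fewer arrays to estimate the spread. For the other calls under changed settings, the share of all probe sets was not counted. Those counts show only how the calls among the 97 moved.

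With each array left out in turn, the rule found 89 to 113 probe sets and rd7 was called against C57BL6/J in 0 to 1 at each age. It was called against each of the other strains in 49 to 64 at P30.5 and 33 to 52 at E18.5, and was on the C57BL6/J side of the rule in 75 to 85 and 59 to 82. It differed from C57BL6/J like the other strains in 1 to 2 at P30.5 and 2 to 13 at E18.5. Age calls numbered 14 to 20 in rd7 and 16 to 24 in C57BL6/J, and the difference in age change was called in 0. The cause of these shifts was not tested. With 2 or 3 arrays in a group, the 95% interval of rd7 minus C57BL6/J reached past 1 log2 unit in all but 81 of the 97 probe sets at P30.5 and all but 53 at E18.5. The array files held no strain sequence.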
